A study of Mus musculus with 12 samples.

Results

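The endoplasmic reticulum (ER) folds secreted and membrane proteins, checks them, and sends those that fail to the cytosol for degradation. The 34 genes described here serve that work. They comprise 4 genes of the stress sensors and the transcription factor XBP1, 7 chaperones and chaperone cofactors, 6 disulfide isomerases, 10 genes of ER-associated degradation (ERAD), and 7 genes of protein translocation and signal peptide cleavage. They were taken by name, as the rows of the gene count table whose Ensembl identifiers map to the listed symbols, out of 35496 genes in all. All 34 were found and all 34 passed the filter on low counts, which left 19497 genes for testing. The samples were cochleae, the hearing organs of the inner ear, from FVB/NCrl mice aged 60 days. Awake mice spent 30 minutes in noise of 70 dB, 94 dB or 105 dB SPL (sound pressure level), and RNA was extracted as soon as the noise ended. The 70 dB group heard ambient sound and served as the control, and the 3 groups otherwise shared strain, age, tissue and duration. Each group had 4 libraries. Whether 1 animal or a pool went into a library is not stated, nor is the sex of the mice, so the p-values measure the spread between these libraries, which may be technical.

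Misfolded protein in the ER draws away the chaperone BiP, encoded by Hspa5, and releases sensors in the ER membrane. ATF6 and its relative ATF6B are cut in the Golgi and freed as transcription factors, while the kinase encoded by Ern1 splices Xbp1 mRNA into the form that encodes active XBP1. These factors raise transcription of chaperones, disulfide isomerases and ERAD genes, a programme known as the unfolded protein response. Because the counts are per gene, spliced Xbp1 could not be told from unspliced Xbp1.

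Many of these genes are known to carry the ER stress response element (ERSE) in their promoters, a CCAAT box bound by NF-Y followed by the sequence CCACG bound by ATF6 or XBP1. Promoter windows from RefSeq (build GRCm38.p6, 250 bases before to 50 after a start) were available for 28 of the 34 genes. Hyou1, Manf, Sec61a1, Derl1, Ssr2 and Atf6 had none. Both strands were searched for ERSE (CCAAT, 9 bases of any kind, then CCACG), for the shorter ERSE-II (ATTGG, 1 base of any kind, then CCACG), which shares its last 5 letters with ERSE, and for the unfolded protein response element UPRE (TGACGTGG). ERSE was found in 7 of the 28 genes (25%), namely Calr, Canx, Creld2, Derl3, Hsp90b1, Pdia6 and Syvn1. Over 32851 RefSeq promoters of the same length it was found in 39 (0.119%). ERSE-II was found in Herpud1 alone among the 28 genes (0.0365% of all promoters), and UPRE in Txndc5 alone, in 1 of its annotated starts (0.676% of all promoters). A match in letters is a description and not evidence of binding.

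5 promoters with a motif are printed as examples. Pdia6, Creld2, Derl3 and Hsp90b1 carry ERSE, and Herpud1 carries ERSE-II. Pdia6, Creld2 and Derl3 were higher at 94 dB, as was Calr, whose site is shown alone below. Hsp90b1 holds 2 ERSE copies and passed no test, and Herpud1 had the largest difference at 105 dB. Each runs 5′ to 3′ on the strand of its gene, with the fixed letters of the motif in capitals; where the motif lies on the other strand the capitals read CGTGG before ATTGG. The windows are chr12:17266339-17266638 on the plus strand, chr15:88819396-88819695 on the plus strand, chr10:75893148-75893447 on the plus strand, chr10:86705395-86705694 on the minus strand and chr8:94386179-94386478 on the plus strand.
Pdia6: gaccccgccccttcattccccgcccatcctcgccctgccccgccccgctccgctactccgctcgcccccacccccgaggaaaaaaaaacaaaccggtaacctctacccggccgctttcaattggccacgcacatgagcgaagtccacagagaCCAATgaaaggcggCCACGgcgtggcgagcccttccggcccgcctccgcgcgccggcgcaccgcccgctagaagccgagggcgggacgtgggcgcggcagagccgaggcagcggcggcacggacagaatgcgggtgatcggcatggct
Creld2: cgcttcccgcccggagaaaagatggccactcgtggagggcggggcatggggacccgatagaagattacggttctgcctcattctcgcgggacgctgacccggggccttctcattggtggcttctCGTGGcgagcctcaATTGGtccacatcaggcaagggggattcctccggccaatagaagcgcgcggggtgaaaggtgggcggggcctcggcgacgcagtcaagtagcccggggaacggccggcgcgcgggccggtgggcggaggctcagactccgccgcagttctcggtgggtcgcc
Derl3: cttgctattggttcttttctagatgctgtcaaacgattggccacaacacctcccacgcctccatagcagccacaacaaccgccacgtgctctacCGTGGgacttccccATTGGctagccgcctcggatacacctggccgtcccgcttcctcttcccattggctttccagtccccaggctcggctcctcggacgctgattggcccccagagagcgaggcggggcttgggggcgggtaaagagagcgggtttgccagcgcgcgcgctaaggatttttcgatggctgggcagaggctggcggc
Hsp90b1: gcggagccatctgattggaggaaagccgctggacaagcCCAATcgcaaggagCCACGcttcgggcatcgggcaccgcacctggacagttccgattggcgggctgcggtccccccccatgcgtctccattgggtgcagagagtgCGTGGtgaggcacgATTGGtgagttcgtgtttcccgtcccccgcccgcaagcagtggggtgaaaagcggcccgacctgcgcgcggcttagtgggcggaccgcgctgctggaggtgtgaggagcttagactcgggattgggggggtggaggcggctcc
Herpud1: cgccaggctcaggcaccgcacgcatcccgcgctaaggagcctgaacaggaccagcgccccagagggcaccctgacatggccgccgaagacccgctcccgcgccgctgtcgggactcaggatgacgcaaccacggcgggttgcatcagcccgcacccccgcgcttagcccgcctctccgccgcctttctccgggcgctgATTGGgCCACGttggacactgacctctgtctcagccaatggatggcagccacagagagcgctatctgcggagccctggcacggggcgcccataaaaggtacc

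The ERSE sites of the remaining 3 genes are shown alone, for comparison of their spacers.
Calr: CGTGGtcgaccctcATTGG
Canx: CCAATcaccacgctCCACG
Syvn1: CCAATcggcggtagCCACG

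Libraries held 31141706 to 42317781 counts, and the 34 genes together took 0.582% to 0.701% of them. Replicates 3 and 4 at 94 dB differed in makeup from replicates 1 and 2. Their haemoglobin genes took 2.90% and 2.95% of counts, against 1.75% and 2.07%, and their mitochondrially encoded genes took 2.68% and 2.73%, against 3.53% and 3.59%. At 70 dB the mitochondrial share was 5.08% to 5.68% and at 105 dB it was 4.43% to 5.35%, so every 94 dB library lay below both other groups. The haemoglobin share was 1.68% to 2.04% at 70 dB and 2.05% to 2.89% at 105 dB. Counts of called genes are therefore also given without replicates 3 and 4 at 94 dB, with the values of the genes whose call was lost there. Levels are library-scaled counts (CPM, scaled with TMM factors), and a fold change is on the log2 scale of the fitted model with its standard error (SE). A gene was called where edgeR's quasi-likelihood test gave a Benjamini-Hochberg adjusted p under 0.05 over all genes tested. In whole cochlea, a change in the number of cells that hold a transcript and a change in transcript per cell cannot be told apart.

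Per kilobase of exon, the abundant members at 70 dB were the lectin chaperone Calr at 302 CPM per kilobase, the isomerase Pdia3 at 206, Hsp90b1 at 141 and P4hb at 139. The scarcest were Pdia5 at 4.08 CPM per kilobase, Ern1 at 3.56 and Derl3 at 2.60. Among the sensors Xbp1 stood highest per length at 71.7 CPM per kilobase, against 29.5 for Atf6b, 5.81 for Atf6 and 3.56 for Ern1. No test was made between genes.

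**Figure D1:**
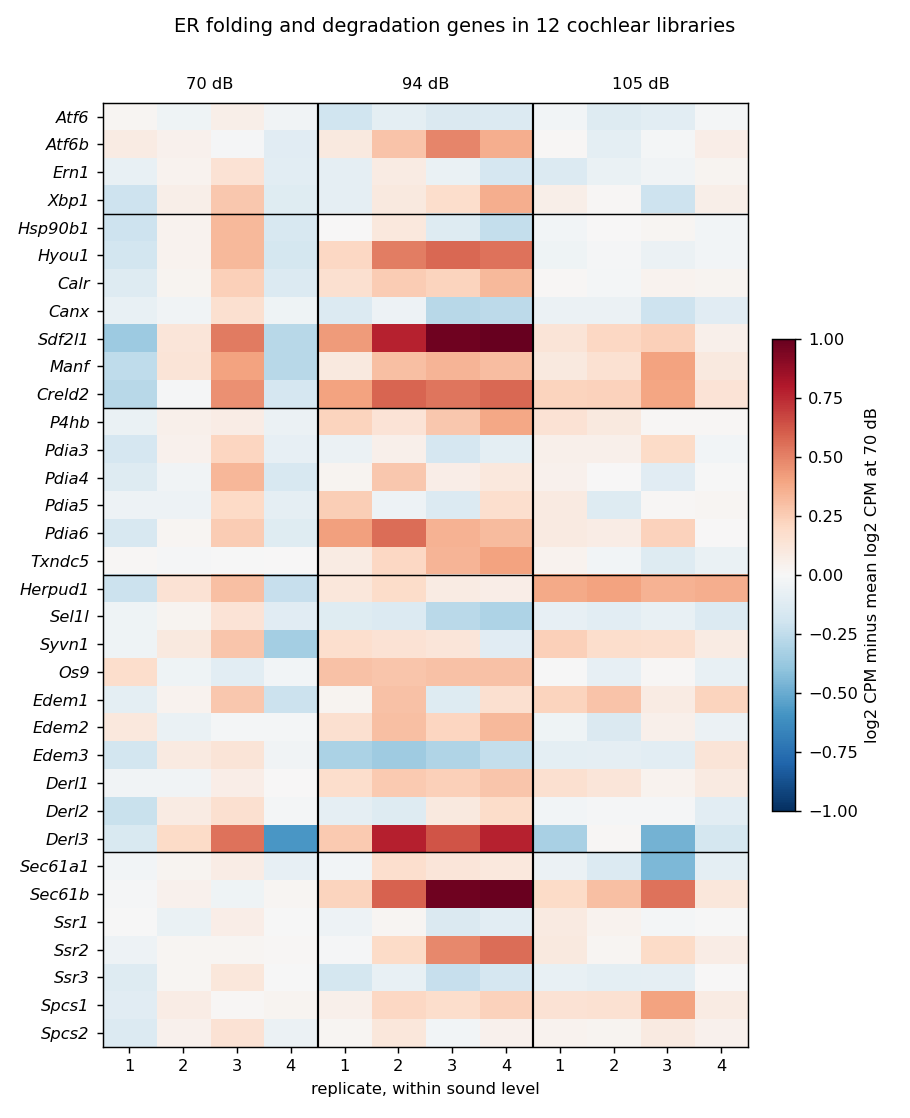
Each row is a gene and each column a library, grouped by sound level and, from top to bottom, by role (sensors, chaperones, isomerases, degradation, translocation, divided by lines). Colour is log2 CPM minus the gene's mean log2 CPM at 70 dB, with values beyond 1 drawn at the end of the scale. Sdf2l1 and Sec61b are darkest at 94 dB, Herpud1 is raised in all 4 libraries at 105 dB, and replicate 3 at 70 dB is the highest 70 dB library for 27 of 34 genes.

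The comparison of 94 dB with 70 dB asked which of these genes differed right after noise of 94 dB. 14 of the 34 rose and 2 fell, 47.1% in all. Of all genes tested, 26.1% were called (13.9% higher, 12.2% lower). The genes that rose were Atf6b, Hyou1, Calr, Sdf2l1, Creld2, P4hb, Pdia6, Txndc5, Os9, Edem2, Derl1, Derl3, Sec61b and Ssr2, and those that fell were Sel1l and Edem3. Fitted log2 fold changes ran from -0.31 to 0.80 with a median of 0.12, against -0.02 over all genes. The 94 dB and 70 dB libraries did not overlap for 11 genes, 8 higher and 3 lower, beside 25.4% of all genes tested (13% higher, 12.3% lower). By role, 1 of 4 sensor genes, 4 of 7 chaperones, 3 of 6 isomerases, 4 of 10 ERAD genes and 2 of 7 translocation genes rose. Without replicates 3 and 4 at 94 dB, 3 genes were called higher (Pdia6, Os9 and Sec61b) and 1 lower (Edem3), 11.8% of the 34 beside 7.97% of all genes tested in that fit, and the median was 0.14. The other 12 genes called with all libraries had the same sign there but did not pass. Without those 2 libraries Sdf2l1 was at 0.57, Derl3 at 0.48, Creld2 at 0.47, Hyou1 at 0.36, Edem2 at 0.23, Derl1 at 0.22, Calr at 0.20, Atf6b at 0.19, P4hb at 0.18, Txndc5 at 0.15, Ssr2 at 0.10 and Sel1l at -0.13, with edgeR adjusted p between 0.0609 for Derl1 and 0.465 for Ssr2.

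Among the sensors, Atf6b, the ATF6 relative, read 86.2, 83.6, 80.8 and 74.99 CPM at 70 dB, 86.96, 98.8, 114 and 105 CPM at 94 dB and 81.9, 75.95, 80.1 and 85.2 CPM at 105 dB. All 4 libraries at 94 dB lay above all 4 at 70 dB, and the difference was 0.31 ± 0.08 log2 units (SE, n = 4 each; edgeR adjusted p = 0.00815). Atf6 itself read 54.3, 52.1, 55.8 and 52.3 CPM at 70 dB, 46.8, 50.02, 48.6 and 48.6 CPM at 94 dB and 52.6, 49.04, 49.7 and 52.9 CPM at 105 dB. Its 94 dB libraries lay below its 70 dB libraries without overlap, but the difference of -0.14 ± 0.06 did not pass (edgeR adjusted p = 0.0745). Xbp1, whose product drives ERAD and secretory genes, read 200.2, 241, 278 and 212 CPM at 70 dB, 217, 247, 260.3 and 297 CPM at 94 dB and 241, 233, 200.1 and 239.9 CPM at 105 dB. The groups overlapped, with differences of 0.13 ± 0.11 at 94 dB and -0.03 ± 0.11 at 105 dB against 70 dB (edgeR adjusted p = 0.390 and 0.914). Ern1, which encodes the kinase and nuclease that splices Xbp1, read 27.6, 29.7, 32.2 and 27.05 CPM at 70 dB, 27.3, 30.8, 27.7 and 25.8 CPM at 94 dB and 26.4, 27.8, 28.4 and 29.6 CPM at 105 dB. No group stood clear of another, and the difference at 94 dB was -0.06 ± 0.08 (edgeR adjusted p = 0.603).

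Among the chaperones and cofactors, 4 rose and 3 did not pass. Sdf2l1 (ENSMUSG00000022769, chr16:17130138-17132383), whose product works with BiP and its J-domain partner DNAJB11, read 26.4, 36.9, 48.6 and 28.1 CPM at 70 dB, 45.7, 58.1, 66.7 and 73.9 CPM at 94 dB and 37.1, 39.2, 40.1 and 35.2 CPM at 105 dB. 3 of the 4 libraries at 94 dB exceeded every 70 dB library, and the difference was 0.80 ± 0.19, the largest of the 34 (edgeR adjusted p = 0.0107). Creld2, an ER protein with epidermal growth factor-like repeats that is induced by ER stress, read 41.1, 49.6, 68.4 and 44.3 CPM at 70 dB, 65.9, 74.8, 72.1 and 74.1 CPM at 94 dB and 58.1, 58.5, 65.5 and 54.8 CPM at 105 dB. Replicate 3 at 70 dB fell within the 94 dB range and the other 70 dB libraries lay below it, with a difference of 0.50 ± 0.13 (edgeR adjusted p = 0.0107). Hyou1 (ENSMUSG00000032115, chr9:44379490-44392369), the exchange factor that resets BiP, read 106, 124, 151 and 106 CPM at 70 dB, 139, 172, 179 and 176 CPM at 94 dB and 117, 119, 116 and 118 CPM at 105 dB. 3 of the 4 libraries at 94 dB were above the 70 dB range, and the difference was 0.45 ± 0.10 (edgeR adjusted p = 0.00523).

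Calr, which encodes the soluble lectin chaperone calreticulin, read 792, 881, 1021 and 786 CPM at 70 dB, 965, 1033, 1008 and 1084 CPM at 94 dB and 872, 853, 884 and 884 CPM at 105 dB. The groups overlapped through replicate 3 at 70 dB, and the difference of 0.23 ± 0.08 passed (edgeR adjusted p = 0.0429). It was called in 4 of the 12 fits that left out 1 library each, and not without replicate 1, 2 or 4 at 70 dB, replicate 2, 3 or 4 at 94 dB or replicate 1 or 2 at 105 dB, where it was 0.20 to 0.24 (edgeR adjusted p = 0.0517 to 0.119). Hsp90b1, the ER member of the HSP90 chaperone family, read 486, 575, 703 and 502 CPM at 70 dB, 562, 604, 513 and 475 CPM at 94 dB and 550.02, 562, 569 and 550.2 CPM at 105 dB. Its libraries overlapped at all levels, and the differences were -0.07 ± 0.10 at 94 dB and -0.02 ± 0.10 at 105 dB (edgeR adjusted p = 0.639 and 0.930). Manf, an ER-resident and secreted trophic factor, and Canx, the membrane-bound lectin calnexin, did not pass, at 0.24 ± 0.13 and -0.18 ± 0.07 (edgeR adjusted p = 0.207 and 0.0823).

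**Figure D2:**
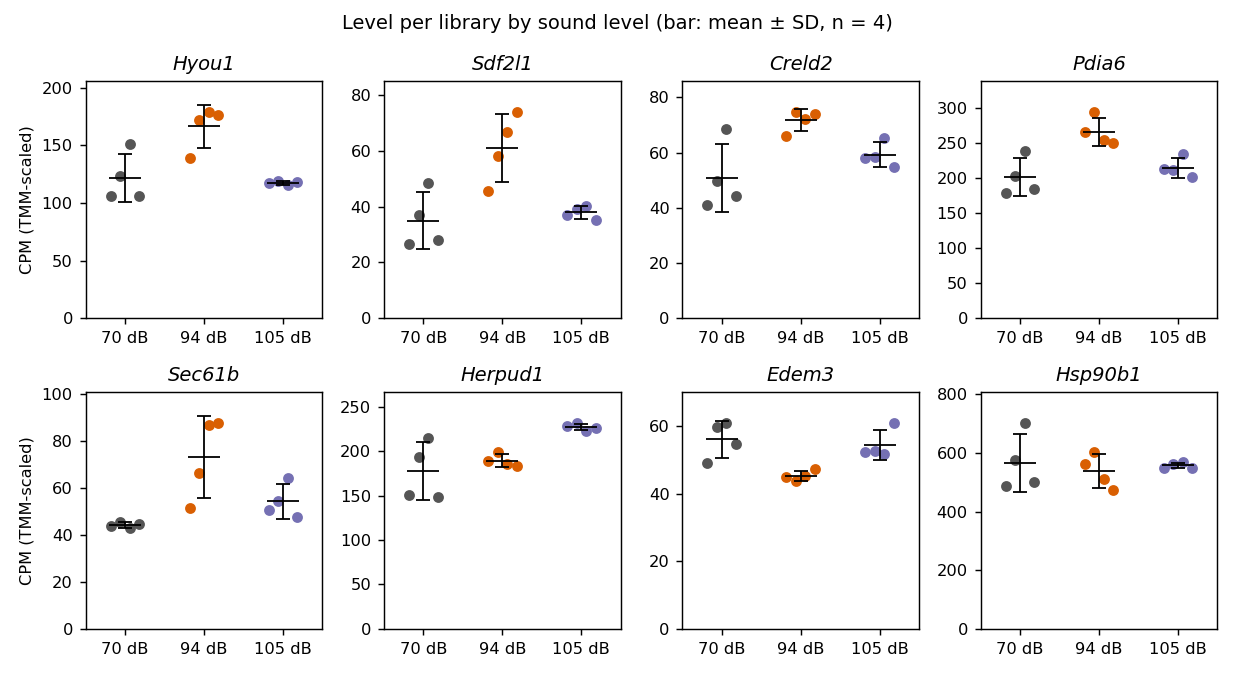
CPM (y axes, from 0) in every library by sound level for 8 of the genes, with horizontal bars for the mean and whiskers for the SD (n = 4). Pdia6 and Sec61b at 94 dB lie above all their 70 dB libraries, Edem3 at 94 dB lies below them, Herpud1 at 105 dB lies above them, and Hsp90b1 overlaps at every level.

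Disulfide isomerases form and rearrange the disulfide bonds of folding proteins. Pdia6 (ENSMUSG00000020571, chr12:17266545-17284770), which is also known to act on the sensors, read 179, 203, 239 and 184 CPM at 70 dB, 265, 294, 254 and 249 CPM at 94 dB and 212, 210.5, 234 and 201 CPM at 105 dB. Every 94 dB library exceeded every 70 dB library, and the difference was 0.40 ± 0.09 (edgeR adjusted p = 0.00410). P4hb, the archetypal protein disulfide isomerase, read 381, 412, 419 and 382 CPM at 70 dB, 465, 437, 479.9 and 521 CPM at 94 dB and 439, 426, 402 and 402 CPM at 105 dB. The groups did not overlap at 94 dB and 70 dB, with a difference of 0.26 ± 0.07 (edgeR adjusted p = 0.0133). Txndc5, a thioredoxin-domain isomerase, read 144, 142, 143 and 144 CPM at 70 dB, 152, 166, 182 and 189.8 CPM at 94 dB and 147, 141, 131 and 137 CPM at 105 dB. Its 70 dB libraries had an SD of 1.03 CPM (n = 4), all 94 dB libraries lay above them, and the difference was 0.27 ± 0.07 (edgeR adjusted p = 0.0113). Pdia3, Pdia4 and Pdia5 overlapped between 94 dB and 70 dB, with differences of -0.08 to 0.11, none of which passed.

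ERAD genes moved in both directions. Os9, a lectin that hands misfolded glycoproteins to the ubiquitin ligase, read 179.8, 154, 148 and 156 CPM at 70 dB, 195, 193, 195 and 194 CPM at 94 dB and 158, 151, 160.4 and 151 CPM at 105 dB. All 94 dB libraries were above all 70 dB libraries, and the difference was 0.29 ± 0.07 (edgeR adjusted p = 0.00509). Derl1, a channel-like derlin of retrotranslocation, read 139, 139, 149 and 143 CPM at 70 dB, 161, 171, 168 and 173 CPM at 94 dB and 159, 155, 146 and 152 CPM at 105 dB. All 94 dB libraries lay above all 70 dB libraries, and the difference between these groups was 0.24 ± 0.06 (edgeR adjusted p = 0.00701). Derl3, a derlin found mainly in secretory cells and the scarcest of the 34 genes per length, read 4.47, 5.66, 7.24 and 3.33 CPM at 70 dB, 5.95, 8.50, 7.70 and 8.47 CPM at 94 dB and 3.97, 5.01, 3.57 and 4.39 CPM at 105 dB. Its groups overlapped, and its difference of 0.56 ± 0.20 passed (edgeR adjusted p = 0.0435). It was called in 4 of the 12 fits that left out 1 library each, and not without replicate 1, 2 or 4 at 70 dB, replicate 2, 3 or 4 at 94 dB or replicate 1 or 4 at 105 dB, where it was 0.42 to 0.61 (edgeR adjusted p = 0.0531 to 0.114).

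The 3 EDEM proteins take part in trimming mannose from glycoproteins bound for degradation, and their genes differed in direction. Edem2 read 43.1, 38.1, 39.4 and 39.4 CPM at 70 dB, 44.7, 49.1, 46.4 and 49.98 CPM at 94 dB and 38.8, 36.1, 41.3 and 38.4 CPM at 105 dB. It rose at 94 dB without overlap, by 0.25 ± 0.07 (edgeR adjusted p = 0.0111). Edem3 read 49.01, 59.5, 60.9 and 54.5 CPM at 70 dB, 44.7, 43.6, 45.3 and 47.2 CPM at 94 dB and 52.2, 52.4, 51.8 and 60.9 CPM at 105 dB. Its 94 dB libraries lay below every 70 dB library, with a difference of -0.31 ± 0.08 (edgeR adjusted p = 0.00813). Edem1 differed by 0.09 ± 0.10 and did not pass (edgeR adjusted p = 0.557). After removal of a trend on GC content and length, described below, Edem2 and Edem3 kept their signs but were not called.

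Sel1l, the adaptor that stabilises the ERAD ubiquitin ligase, read 121, 127, 138 and 115 CPM at 70 dB, 115, 114, 104 and 101 CPM at 94 dB and 119, 116, 119 and 114 CPM at 105 dB. The 94 dB libraries lay just below the 70 dB libraries, and the difference of -0.21 ± 0.07 passed (edgeR adjusted p = 0.0315). It did not pass without replicate 2 or 3 at 70 dB or replicate 3 or 4 at 94 dB, at -0.20 to -0.15 (edgeR adjusted p = 0.0679 to 0.126). Syvn1, which encodes that ligase, and Derl2 did not pass, at 0.07 ± 0.10 and 0.01 ± 0.09 (edgeR adjusted p = 0.675 and 0.920). Herpud1, which encodes an organiser of the ligase complex in the ER membrane, is described with the 105 dB comparison.

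Of the translocation genes, Sec61b (ENSMUSG00000053317, chr4:47474658-47483242), a small subunit of the Sec61 channel, read 43.6, 45.4, 42.8 and 44.6 CPM at 70 dB, 51.5, 66.4, 86.7 and 87.6 CPM at 94 dB and 50.5, 54.2, 64.3 and 47.6 CPM at 105 dB. All 94 dB libraries were above the narrow 70 dB range, and replicates 3 and 4 were the highest. The difference was 0.73 ± 0.15 (edgeR adjusted p = 0.00355), and 0.42 without those 2 libraries (edgeR adjusted p = 0.0346). Ssr2, a subunit of the translocon-associated protein complex, read 90.1, 94.5, 94.4 and 93.97 CPM at 70 dB, 92.3, 107, 129.8 and 137 CPM at 94 dB and 99.98, 94.2, 106 and 98.1 CPM at 105 dB. Its difference of 0.32 ± 0.10 passed (edgeR adjusted p = 0.0224), with 1 of the 94 dB libraries inside the 70 dB range. It did not pass without replicate 1 at 70 dB or replicate 3 or 4 at 94 dB, at 0.23 to 0.31 (edgeR adjusted p = 0.0507 to 0.0871). Ssr1, Ssr3, Sec61a1, Spcs1 and Spcs2 were not called, with differences of -0.16 to 0.17.

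Noise of 105 dB was compared with the same 70 dB libraries, so the 2 comparisons share their control. None of the 34 genes was called by edgeR's quasi-likelihood test, beside 1.62% of all genes tested (1.11% higher, 0.508% lower). At an unadjusted p under 0.05 there were 3 (Herpud1, Spcs1 and Sec61a1), beside 18.7% of all genes tested, and DESeq2 called 1, Herpud1, beside 4.42% of all genes. The median log2 fold change of the 34 genes was -0.01, against 0.00 over all genes, and single values ran from -0.29 to 0.36. Herpud1, Sec61b and Spcs1 were higher at 105 dB without overlap and no gene was lower without overlap, beside 10.8% of all genes tested (5.78% higher, 5.03% lower).

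Herpud1 (ENSMUSG00000031770, chr8:94386438-94395377) carries the ERSE-II site printed above and had the largest value at 105 dB. It read 151, 194, 215 and 149 CPM at 70 dB, 189, 199, 185 and 183 CPM at 94 dB and 228, 232, 223 and 226 CPM at 105 dB. The 105 dB libraries lay close together and above every library of both other groups. Against 94 dB the difference of 0.26 ± 0.10 did not pass (edgeR adjusted p = 0.0693). The difference at 105 dB was 0.36 ± 0.10 against 70 dB (edgeR adjusted p = 0.0731; DESeq2 adjusted p = 0.0238), and at 94 dB it was 0.09 ± 0.10 (edgeR adjusted p = 0.514). At 70 dB the 4 libraries were split, with replicates 2 and 3 above replicates 1 and 4. Over the alternatives tried the adjusted p at 105 dB ran from 0.0114 to 0.207, and 5 of 23 alternatives called it. Without replicate 3 at 70 dB, Herpud1 (0.47, edgeR adjusted p = 0.0114) and Creld2 (0.40, edgeR adjusted p = 0.0228) were called at 105 dB. This was 5.88% of the genes described here, beside 1.51% of all genes tested in that fit.

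**Figure D3:**
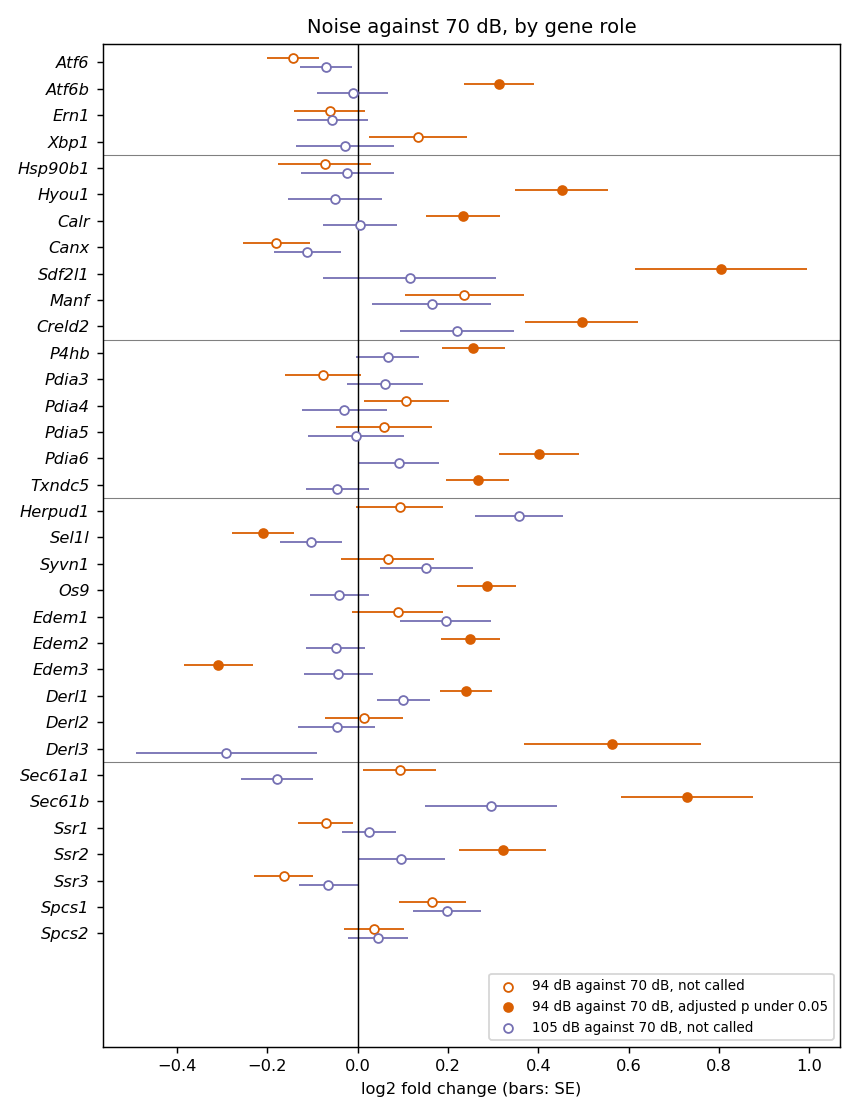
Fitted log2 fold changes (x axis) of the 34 genes at 94 dB and at 105 dB, each against 70 dB, with bars for the SE. Genes run down the page by role, divided by lines, and filled points passed the threshold. 16 points are filled at 94 dB and none at 105 dB.

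The direct comparison of 105 dB with 94 dB tested where the 2 noise levels differed. 9 of the 34 genes were lower at 105 dB and 1 was higher, 29.4% in all, beside 17.3% of all genes tested (8.06% higher, 9.23% lower). The median was -0.10, against 0.00 over all genes. The 105 dB and 94 dB libraries did not overlap for 12 lower and 2 higher genes, beside 21.3% of all genes tested (10.8% lower, 10.5% higher). The 9 lower genes were Atf6b, Hyou1, Sdf2l1, Pdia6, Txndc5, Os9, Edem2, Derl3 and Sec61a1. This comparison shares its 94 dB libraries with the comparison of 94 dB with 70 dB. Without replicates 3 and 4 at 94 dB, which leaves 2 libraries there, edgeR called none of the 34 in this comparison (smallest adjusted p = 0.0611, for Os9) and 1.07% of all genes tested, and 9 of the 34 had an unadjusted p under 0.05, beside 17.4% of all genes. There Derl3 was at -0.77, Sdf2l1 at -0.46, Hyou1 at -0.41, Pdia6 at -0.38, Os9 at -0.33, Edem2 at -0.28, Sec61a1 at -0.25, Atf6b at -0.20, Txndc5 at -0.19 and Edem3 at 0.30.

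The largest difference between the noise levels was that of Derl3, at -0.85 ± 0.20 (edgeR adjusted p = 0.00942), with 3.57 to 5.01 CPM at 105 dB and 5.95 to 8.50 CPM at 94 dB. Sdf2l1 differed by -0.69 ± 0.19 (edgeR adjusted p = 0.0304). Sdf2l1 was called in 6 of the 12 fits that left out 1 library each, and not without replicate 3 or 4 at 94 dB or any 1 of the 105 dB replicates, at -0.72 to -0.58 (edgeR adjusted p = 0.0550 to 0.0898). Hyou1 differed by -0.50 ± 0.10 (edgeR adjusted p = 0.00540) and was called in all 12. The Hyou1 libraries at 105 dB lay between 116 and 119 CPM, below all 94 dB libraries and inside the 70 dB range. For Os9, Atf6b, Txndc5, Pdia6 and Edem2 the differences were -0.33, -0.32, -0.31, -0.31 and -0.30. Pdia6 did not pass without replicate 2 at 94 dB or replicate 1, 2 or 4 at 105 dB, at -0.30 to -0.26 (edgeR adjusted p = 0.0600 to 0.0844). Edem3 was the gene that was higher at 105 dB, by 0.27 ± 0.08 (edgeR adjusted p = 0.0260). It did not pass without replicate 2 or 3 at 94 dB or replicate 4 at 105 dB, at 0.21 to 0.27 (edgeR adjusted p = 0.0540 to 0.0973). Sec61a1, the pore of the Sec61 channel, read 142, 147, 151 and 137 CPM at 70 dB, 141, 162, 157 and 155 CPM at 94 dB and 138, 131, 106 and 135 CPM at 105 dB. It was lower at 105 dB than at 94 dB by -0.27 ± 0.08 (edgeR adjusted p = 0.0289), with replicate 3 at 105 dB the lowest library. It did not pass without replicate 2, 3 or 4 at 94 dB or replicate 2 or 3 at 105 dB, at -0.28 to -0.19 (edgeR adjusted p = 0.0554 to 0.0769). Sec61b, Creld2, Calr, Ssr2, P4hb and Derl1 did not pass, at -0.43, -0.28, -0.23, -0.22, -0.19 and -0.14.

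Other genes of the ER pathway were counted from a list of 60, of which 58 were tested. At 94 dB against 70 dB 15 were higher and 10 lower (43.1%, beside 26.1% of all genes tested), with a median of -0.02. At 105 dB against 70 dB edgeR called none, and 5 had an unadjusted p under 0.05, where 18.7% of all genes had. At 105 dB against 94 dB 8 were higher and 7 lower (25.9%, beside 17.3%). After removal of a trend on GC content and length, described below, 14 were higher and 2 lower at 94 dB against 70 dB (27.6%, beside 16.5%). Between the noise levels 3 were then higher and 3 lower (10.3%, beside 9.82%). Without replicates 3 and 4 at 94 dB, 6 were higher and 2 lower at 94 dB against 70 dB (13.8%, beside 7.97%) and 1 was lower, Rnf5, at 105 dB against 94 dB (1.72%, beside 1.07%). Hspa5, which encodes BiP, read 639.7, 876, 1130.5 and 723 CPM at 70 dB, 872, 1022, 927 and 1033 CPM at 94 dB and 892, 893, 887 and 878 CPM at 105 dB. Its groups overlapped, and the differences from 70 dB were 0.19 ± 0.13 at 94 dB and 0.08 ± 0.13 at 105 dB (edgeR adjusted p = 0.304 and 0.796).

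The 3 genes of that list with the smallest p at 94 dB were the ERAD ubiquitin ligase Rnf5, the ubiquitin-conjugating enzyme Ube2g2 and Mogs, the glucosidase that starts glycan trimming. Rnf5 averaged 37.98 ± 2.64 CPM at 94 dB and 25.55 ± 1.70 CPM at 70 dB (SD, n = 4 each), a difference of 0.57 ± 0.08 (edgeR adjusted p = 0.000131). Mogs differed by 0.56 ± 0.08 and Ube2g2 by 0.63 ± 0.09 (edgeR adjusted p = 0.000161 and 0.000188). Between 105 dB and 94 dB the 3 were Rnf5 at -0.57 ± 0.08, Tram1, a translocon-associated protein, at 0.37 ± 0.06, and the mannosidase Man1b1 at -0.30 ± 0.06 (edgeR adjusted p = 0.000621, 0.00254 and 0.00301). Without replicates 3 and 4 at 94 dB, Rnf5, Mogs and Ube2g2 were at 0.64, 0.52 and 0.48 at 94 dB against 70 dB and passed (edgeR adjusted p = 0.000839, 0.00439 and 0.00480). Between the noise levels Rnf5 was then at -0.64 (edgeR adjusted p = 0.00805), and Tram1 and Man1b1 did not pass, at 0.32 and -0.28 (edgeR adjusted p = 0.0583 each).

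Transcription factors and effectors of the stress response were followed in a list of 10. 3 rose and 1 fell at 94 dB (40%, beside 26.1% of all genes tested), 3 rose at 105 dB against 70 dB (30%, beside 1.62%), and 1 was lower at 105 dB than at 94 dB (10%, beside 17.3%). Atf4, a transcription factor whose translation increases when initiation is restrained, read 184, 168, 172 and 148 CPM at 70 dB, 245, 257, 252 and 263 CPM at 94 dB and 242, 240.4, 265 and 198 CPM at 105 dB. Both noise groups lay above the 70 dB range, by 0.60 ± 0.08 at 94 dB and 0.49 ± 0.08 at 105 dB (edgeR adjusted p = 0.000215 and 0.00489). The other genes called were Atf3, Cebpb and Vldlr, named here after their values were seen. Atf3 rose by 2.31 ± 0.25 at 94 dB and 2.11 ± 0.25 at 105 dB and Cebpb by 2.61 ± 0.18 and 2.07 ± 0.18, and Cebpb was the gene lower at 105 dB than at 94 dB, by -0.54 ± 0.17. Vldlr, a lipoprotein receptor, differed by -0.30 ± 0.07 at 94 dB. Without replicates 3 and 4 at 94 dB the calls of Atf4, Atf3, Cebpb and Vldlr against 70 dB held, and Cebpb did not pass between the noise levels, at -0.36 (edgeR adjusted p = 0.257). Ddit3, the pro-apoptotic factor CHOP, and Ppp1r15a, a phosphatase subunit that restores translation, were not called. Ddit3 differed by 0.03 ± 0.09 at 94 dB and 0.26 ± 0.09 at 105 dB, and Ppp1r15a by 0.19 ± 0.11 and 0.11 ± 0.11.

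The 94 dB difference moved with the base composition and length of the transcripts. Across the 34 genes, Spearman's rho between the log2 fold change at 94 dB and transcript GC content was 0.728, and with exon length it was -0.654. Across 19484 genes these were 0.456 and -0.261, all points coming from the same libraries. The 14 genes that rose had a GC content of 48.9% to 60.3% with a median of 54.3%, the 2 that fell had 43.5% and 47.7%, and the 18 not called had a median of 47.1%. At 105 dB against 70 dB, rho with GC content was 0.168 across the 34 genes.

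A smooth trend on GC content and length was then removed from each library before the fit. With it, 6 genes were called higher at 94 dB (Hyou1, Pdia6, Txndc5, Derl1, Sec61b and Spcs1) and no gene lower, 17.6% of the 34, beside 16.5% of all genes tested (9.67% higher, 6.8% lower). At an unadjusted p under 0.05 there were 12 of the 34, beside 31.3% of all genes. Pdia6 was 0.44 (edgeR adjusted p = 0.00282), Hyou1 0.43 (edgeR adjusted p = 0.0159) and Sec61b 0.41 (edgeR adjusted p = 0.00533). Sdf2l1 moved to 0.46, Creld2 to 0.23 and Atf6b to 0.01, and none of these passed. Calr, P4hb, Os9, Edem2, Derl3, Ssr2, Sel1l and Edem3 also lost their calls there. The median over the 34 genes stayed at 0.12. Between 105 dB and 94 dB the same fit called Hyou1, Pdia6, Txndc5 and Edem2 lower and Herpud1 higher, 14.7% of the 34, beside 9.82% of all genes. Of the 16 genes called at 94 dB, 12 were also called when each of the 12 libraries was left out in turn, and Pdia6 and Sec61b were called under all 23 alternatives. Of the 10 called between 105 dB and 94 dB, 6 were called without each library and none under all alternatives. The matching shares over all called genes were not counted, so these counts have no reference value.

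**Figure D4:**
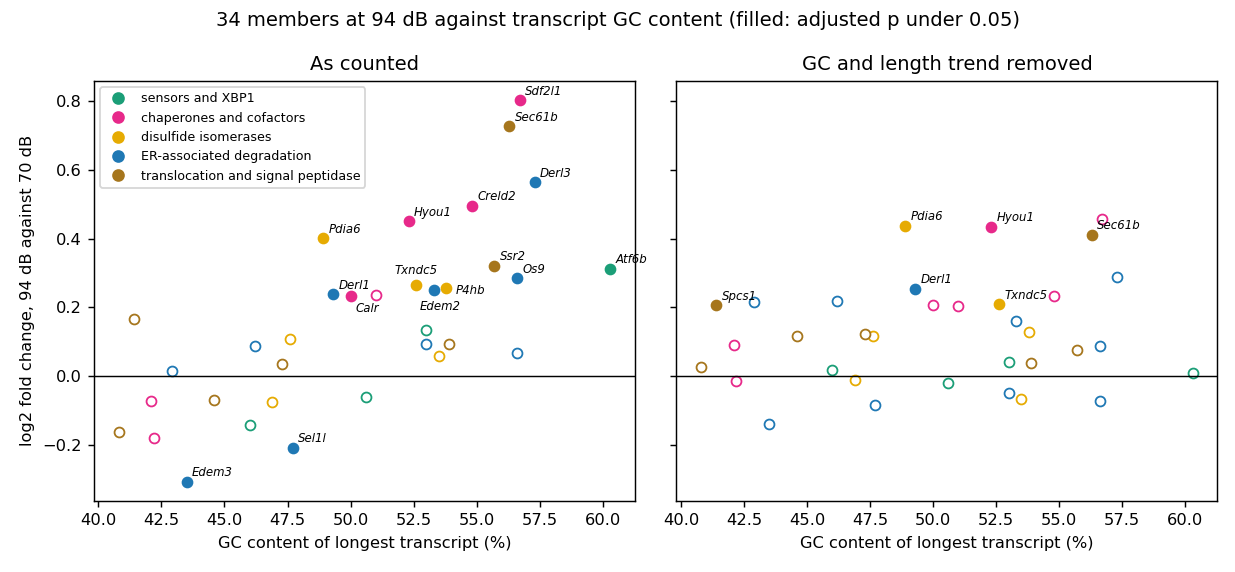
Log2 fold change at 94 dB against 70 dB (y axes) by GC content of the longest transcript (x axes) for the 34 genes, coloured by role, as counted (left) and after removal of the composition and length trend (right). Filled points passed the threshold. On the left the values climb with GC content, with rho at 0.728, and on the right 6 points are filled.

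Genes with and without an ERSE, ERSE-II or UPRE were among those called. Of the 9 genes with any of these motifs, 5 were called at 94 dB (Calr, Creld2, Derl3, Pdia6 and Txndc5), and of the 19 with a promoter window and no motif, 8 were, where 26.1% of all genes tested were. Canx, Hsp90b1, Syvn1 and Herpud1 had a motif and were not called at 94 dB. Sdf2l1 and Sec61b, with the largest values, had none of the 3 full motifs in their windows. No test was made.

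Spread between libraries differed by group. The coefficient of variation of CPM had a median over the 34 genes of 9.19% at 70 dB, 7.46% at 94 dB and 4.67% at 105 dB. Replicate 3 at 70 dB was the highest 70 dB library for 27 of the 34 genes (79.4%), where it was highest for 23.9% of all genes tested. This held for all 7 chaperones, 5 of 6 isomerases, 8 of 10 ERAD genes, 3 of 4 sensor genes and 4 of 7 translocation genes. In that library Sdf2l1 was 59.5% above the mean of the other 70 dB libraries, Creld2 52.1%, Manf 43.9% and Hsp90b1 35%. Hspa5 was also highest there, at 1131 CPM against 639.7 to 876 CPM. Sec61b, Txndc5, Os9, Edem2, Atf6b, Ssr2 and Spcs1 were highest in another library. Without it 16 genes were called higher and 1 lower at 94 dB, with a median of 0.22. This was 50% of the 34, beside 19.6% of all genes tested in that fit (11.1% higher, 8.51% lower).

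Marker genes of other cell types also moved between groups, and their part in these results was not tested. No marker was at 0 in all libraries. Of all genes tested, 26.1% were called at 94 dB against 70 dB, 1.62% at 105 dB against 70 dB and 17.3% at 105 dB against 94 dB. The 6 macrophage markers summed to 339 to 393 CPM at 70 dB, 443 to 548 CPM at 94 dB and 363 to 401 CPM at 105 dB, with 4 called higher and 1 lower at 94 dB. At 105 dB, 1 macrophage marker was called lower against 70 dB and 3 lower against 94 dB. The 8 neutrophil markers summed to 7858 to 9716 CPM at 70 dB, 8015 to 15653 CPM at 94 dB and 8654 to 10239 CPM at 105 dB, with 4 called higher at 94 dB and 1 higher at 105 dB, each against 70 dB. The 9 plasma cell markers, which include Xbp1, summed to 992 to 1371 CPM at 70 dB, 987 to 1235 CPM at 94 dB and 1229 to 1289 CPM at 105 dB, with 2 of 8 tested called higher and 1 lower at 94 dB. At 105 dB against 94 dB, 2 plasma cell markers were called lower. The 6 Schwann cell markers summed to 2978 to 4934 CPM at 70 dB, 2434 to 3372 CPM at 94 dB and 2494 to 3496 CPM at 105 dB, with 1 called higher and 2 lower at 94 dB. At 105 dB against 70 dB no Schwann cell marker was called (smallest edgeR adjusted p = 0.0703). There 5 of the 6 had an unadjusted p under 0.05, beside 18.7% of all genes tested. Their median log2 fold change was -0.41, with 5 values negative and 1 positive. The 7 stria vascularis markers summed to 1250.1 to 1369 CPM at 70 dB, 1053 to 1197 CPM at 94 dB and 1219 to 1279.9 CPM at 105 dB, lower at 94 dB than in both other groups without overlap, with 2 called lower at 94 dB against 70 dB and 2 higher at 105 dB against 94 dB. The 6 fibrocyte markers summed to 9385 to 10981 CPM at 70 dB, 9093 to 9951 CPM at 94 dB and 9481 to 10679 CPM at 105 dB, with 2 called higher and 2 lower at 94 dB against 70 dB and 3 higher and 2 lower at 105 dB against 94 dB. The 7 erythroid markers summed to 18147 to 22272 CPM at 70 dB, 18844 to 32448 CPM at 94 dB and 22291 to 31436 CPM at 105 dB, with 2 called higher and 1 lower at 94 dB. At 105 dB against 94 dB, 1 erythroid marker was called higher and 1 lower. The 6 chondrocyte markers summed to 561 to 722 CPM at 70 dB, 643 to 723 CPM at 94 dB and 527 to 639.7 CPM at 105 dB. The sums of the osteoblast, supporting cell, spiral ganglion neuron and skeletal muscle markers overlapped between all groups. Of the 9 osteoblast markers, 3 were called lower at 94 dB and 1 lower at 105 dB, each against 70 dB. Of the 7 supporting cell markers, 1 was called higher and 1 lower at 94 dB, and likewise at 105 dB against 94 dB. Of the 7 spiral ganglion neuron markers, 1 was called lower at 94 dB and 1 higher at 105 dB against 94 dB. No skeletal muscle marker was called. The tissue label was checked on 9 hair cell markers, which summed to 105 to 120 CPM at 70 dB, 102 to 114 CPM at 94 dB and 105 to 113 CPM at 105 dB with none called by edgeR in any contrast and 2, 2 and 0 at an unadjusted p under 0.05 at 94 dB against 70 dB, 105 dB against 70 dB and 105 dB against 94 dB; the outer hair cell motor gene Slc26a5 was at 0.142 to 0.558 CPM.

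Some counts are uncertain because reads may be shared with other genes. In 50-base stretches, 15.3% of the longest Sec61b transcript also occurs in transcripts of other genes, 14.6% of Sec61a1, 10% of Hsp90b1, 7.12% of Txndc5, 5.92% of Derl1, 5.32% of Manf and 5.1% of Spcs2. Exons of Pdia6, Pdia3, Txndc5, Derl2, Syvn1, Ssr2, Spcs1, Manf and Hsp90b1 overlap a gene on the opposite strand, those of Hsp90b1 also overlap Gm15344 and those of Manf Rbm15b on the same strand, and the use of strand in counting is not given in the sources used here.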

How the data were processed

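Total RNA from TRIzol extracts (1 µg) was made into libraries with an Illumina TruSeq RNA kit, per the labels' protocols. The authors deposited raw counts of reads for each gene, as whole numbers, in a single table of the 12 libraries. CASAVA, STAR and featureCounts 1.5.0-p3 were run against mm10, per the submitters' processing notes. The annotation, strand use and treatment of multiply aligned reads were not given in the sources used here. Sample titles gave the groups and the replicate numbers, and every value column was used. Of 35496 genes, 35474 had a symbol in GENCODE M21 (GRCm38, the assembly also called mm10), the source of positions, exon lengths and GC content.

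The deposited counts went into edgeR 4.0.16 (R 4.3.3): filterByExpr with a minimum count of 10 (19497 genes, 99.9% of counts), TMM factors, a mean per group over all 12 libraries (9 residual degrees of freedom, biological coefficient of variation 0.133), glmQLFit with robust dispersions, glmQLFTest per contrast, and Benjamini-Hochberg adjustment over all genes tested at 0.05. A count of 3 equals 0.0703 to 0.0966 CPM; such limits cover counting error only. No 2 libraries of a group were duplicates (Pearson's r of log2 CPM 0.984 to 0.991, chi-square per degree of freedom 11.4 to 48.3).

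Every gene is accounted for; values of each library are printed for genes called in any contrast and for Hsp90b1, Xbp1, Atf6, Ern1 and Herpud1, with Hspa5, Atf4, Ddit3, Ppp1r15a and, per contrast, the 3 other pathway genes of smallest p among those called named beside them. The members, lists and this rule were chosen with earlier results of these data known. Alternatives were other size factors, other low-count filters, DESeq2 1.42.0, a fit of only the 8 libraries compared, the replicate number or the sample code as a block, a GC and length trend (natural splines with 5 degrees of freedom per property, as offsets), removal of replicates 3 and 4 at 94 dB, and each library left out. RefSeq promoters were matched by symbol.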

Additional observations from a re-analysis of the deposited data

Results flagged for a closer look

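In 6 of 102 groups of 4 libraries, 1 library of a gene stood apart from the other 3, its gap to the nearest, as a share of the group's range, being above Dixon's critical value. Chance gives about 1 in 20 such groups. Canx read 528 CPM in replicate 3 at 70 dB, where the others read 448 to 462 CPM. Pdia5 read 12.9 CPM in the same library, against 10.6 to 10.9 CPM in the others. Ssr2 read 90.1 CPM in replicate 1 at 70 dB, with the others at 94.0 to 94.5 CPM. Manf read 115 CPM in replicate 1 at 94 dB, with the others at 132 to 135 CPM. Manf also read 141 CPM in replicate 3 at 105 dB, with the others at 114 to 119 CPM. Edem3 read 60.9 CPM in replicate 4 at 105 dB, with the others at 51.8 to 52.4 CPM.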

How the results depend on the processing

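No result changed sign and stayed called under any alternative. Counts that moved by over 1.5 times are given here, and their cause was not tested. At 94 dB against 70 dB, 5085 genes were called, against 3211 after removal of the GC and length trend and 1610 without replicates 3 and 4 at 94 dB. Members higher numbered 14, and 6 with the trend removed, 6 with trend and replicate block, and 3 without those 2 libraries. In either direction, 47.1% of members were called, beside 26.1% of all genes tested. With the trend removed the shares were 17.6% beside 16.5%, with trend and block 17.6% beside 17.4%, and without those 2 libraries 11.8% beside 7.97%. Members lower numbered 2, and 5 with upper-quartile factors, 1 with no low-count filter, with the 8 libraries compared or without those 2 libraries, and 0 with the trend removed, with or without the block. Upper-quartile factors also gave a share of higher calls of 45% over all genes and 70.6% over members, against 53.4% and 87.5% with TMM.

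At 105 dB against 70 dB, 316 genes were called, and 523 with no filter, 861 with DESeq2, 479 with a replicate block and 675 with block and trend; 1 member was higher with no filter, DESeq2, the replicate block or the sample code block. At 105 dB against 94 dB, 3372 genes were called, and 1914 with the trend removed, 2008 with block and trend, 1414 with the sample code block and 217 without replicates 3 and 4 at 94 dB. Members higher numbered 1, and 2 with no filter or the 8 libraries compared and 0 with the sample code block or without those 2 libraries. Members lower numbered 9, and 4 with the trend or the sample code block, 3 with block and trend and 0 without those 2 libraries.

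With each library left out, genes called ran from 3452 to 5409, members higher from 11 to 16, members lower from 1 to 3 and the median from 0.081 to 0.222 at 94 dB against 70 dB. The ranges were 126 to 399, 0 to 2, 0 to 0 and -0.0343 to 0.087 at 105 dB against 70 dB, and 1650 to 3798, 0 to 2, 6 to 12 and -0.142 to -0.0689 at 105 dB against 94 dB. For single genes, 2198 alternative values kept their side of the threshold, 111 lost it and 37 gained it. Same-numbered libraries correlated at -0.149 to 0.182 and 4 of 12 correlated best with their own number. Such weak correlations cannot settle whether the numbers pair the libraries, and the labels state no pairing. At 105 dB, replicates 3 and 4 carry the sample codes 4 and 5. The replicate block called 15 members higher and 2 lower at 94 dB (50%, beside 26.1% of all genes tested). At 105 dB against 70 dB it called 1 higher, Herpud1 (edgeR adjusted p = 0.0446), 2.94% of the 34 beside 2.46% of all genes. Between the noise levels it called 1 higher and 10 lower (32.4%, beside 17.3%). The fewest counts among the 34 genes were those of Derl3.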

Other observations

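The partner genes of the translocation machinery, looked at after their values were seen and as counted, moved in different directions at 94 dB against 70 dB. Sec61g, the third subunit of the channel that holds Sec61b, rose by 0.97 ± 0.23 (edgeR adjusted p = 0.0112), with 73.3 to 133 CPM at 94 dB and 45.6 to 57.1 CPM at 70 dB. Ssr4, a partner of Ssr2, rose by 0.53 ± 0.12 (edgeR adjusted p = 0.00524). Sec62 and Sec63, membrane proteins that serve post-translational translocation, fell by 0.21 and 0.20 on the log2 scale (edgeR adjusted p = 0.0387 and 0.0224), and Tram1 fell by 0.35 (edgeR adjusted p = 0.00131). Erlec1, a lectin related to Os9, fell by 0.46 (edgeR adjusted p = 0.000468), while Os9 rose. At 105 dB against 70 dB none of these was called, with Sec61g at 0.49 ± 0.23 (edgeR adjusted p = 0.274). Without replicates 3 and 4 at 94 dB, Sec61g, Ssr4, Sec62 and Sec63 did not pass, at 0.51, 0.25, -0.11 and -0.14 (edgeR adjusted p = 0.0985, 0.0832, 0.374 and 0.214), and Tram1 and Erlec1 passed, at -0.30 and -0.46. In the fit corrected for GC content and length, Sec62 and Sec63 did not pass, at -0.05 and -0.01 (edgeR adjusted p = 0.641 and 0.918), and the other 4 passed. Os9 was not called in that fit, so the rise of Os9 beside the fall of Erlec1 held only as counted.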
